A study of Mus musculus with 3 samples.

Results

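Lymphoid-primed multipotent progenitors (LMPPs) were examined in 3 single-cell RNA libraries of mouse bone marrow collected 14 days after irradiation. The members were selected on their measured values in the count matrices: raw UMIs (unique molecular identifiers, 1 per captured transcript) of Flt3 at 2 or more, Dntt at 1 or more, Cd34 at 1 or more, Il7r and Cd79a at 0, and Mpo at 9 or fewer, among cells with 200 or more genes and at most 5% mitochondrial UMIs. Of 31292 such cells, 426 were members: 298 of the 10674 Control cells, 68 of the 10345 IR cells and 60 of the 10273 IR+CBD cells. Levels of the 6 genes of the rule are therefore given as description only.

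Flt3 encodes the receptor for FLT3 ligand, which multipotent progenitors gain as their capacity for self-renewal declines, and Cd34 encodes a surface sialomucin of early progenitors. Dntt encodes terminal deoxynucleotidyl transferase, which adds untemplated nucleotides during antigen receptor gene assembly and is transcribed early in lymphoid priming, before the interleukin 7 receptor (Il7r) of common lymphoid progenitors. Mpo (myeloperoxidase) and Cd79a (a B cell receptor subunit) mark the granulocyte-monocyte and B cell routes, which the rule leaves out.

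Each library pooled femur marrow from 3 male C57BL/6 mice. Marrow was sorted into lineage-negative Kit-positive, lineage-negative Kit-negative and lineage-positive fractions and remixed at 5:4:1, so that every share below refers to this mix and not to whole marrow. Control mice were not irradiated, IR mice received 6.0 Gy of gamma rays with the solvent (soybean oil with DMSO), and IR+CBD mice received 6.0 Gy with cannabidiol (CBD) injected intraperitoneally before and after the exposure. With 1 library per condition, treatment and library cannot be told apart, and no test was made between conditions. The 95% intervals given in parentheses cover counting error only, except those of list medians, which run over the genes of a list. Levels given 3 in a row follow the order Control, IR and IR+CBD, and ratios or medians given 3 in a row the order IR over Control, IR+CBD over IR and IR+CBD over Control; the first and last share the Control library.

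The members carried a median of 16814 (Control), 22468.5 (IR) and 19123.5 (IR+CBD) UMIs per cell, with 4651, 5212.5 and 4852.5 genes and 1.41%, 1.35% and 1.31% mitochondrial UMIs. Cells in IR were thus the deepest, so that detection shares are also given after every member was thinned at random to 5000 UMIs, which all of them reached. Among all cells passing the filters, 26 barcodes were shared between Control and IR, 28 between Control and IR+CBD, and 34 between IR and IR+CBD.

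Within the rule, the median member held 5 Flt3 UMIs in Control (range 2 to 27), 5.5 in IR (2 to 39) and 5 in IR+CBD (2 to 16). Median Dntt was 7, 11 and 13.5 UMIs, median Cd34 was 5, 6 and 6, and median Mpo was 2, 1 and 2. Just inside the thresholds lay 52, 10 and 12 members with exactly 2 Flt3 UMIs, and 51, 10 and 12 with exactly 1 Dntt UMI. Just outside lay 50, 11 and 18 cells with 1 Flt3 UMI, 172, 39 and 62 with no Dntt UMI, 57, 13 and 11 with 1 Il7r UMI, and 26, 5 and 10 with 10 to 14 Mpo UMIs. Cd34 placed 17, 1 and 3 members at 1 UMI and 11, 4 and 4 other cells at 0, and a further 7, 2 and 1 barcodes met the gene rule but failed the filters.

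Surface genes that the rule did not use were compared with the label. Kit, the stem cell factor receptor, was detected in 68.8%, 72.1% and 63.3% of members in Control, IR and IR+CBD, and in 36.6%, 26.5% and 31.7% after thinning, where IR was the lowest and no longer the highest. As a background for other genes, 803, 868 and 971 neutrophils of the same libraries were taken (cells with 10 or more Retnlg UMIs and, by that choice, no Kit UMI). This set is no clean background, since single Control neutrophils held up to 417 UMIs of Elane, 26 of Cd79a and 20 of Mki67. Of the neutrophils, only 638, 763 and 789 reached 5000 UMIs, and the shares of thinned neutrophils rest on these. Cd27, a costimulatory receptor of multipotent progenitors, was found in 41.6%, 45.6% and 51.7% of thinned members against 1.57%, 1.57% and 1.90% of thinned neutrophils. Cd48, absent from long-term stem cells and present on multipotent progenitors, was found in 53.02%, 67.6% and 51.7% of thinned members, and Slamf1, which encodes the CD150 of stem cells, gave only 5, 1 and 0 UMIs in the whole set (the 0 has an upper limit of 3 counts). Slamf1 was near 0 in the other classes too, so its scarcity gives the label no support. Ly6a, the Sca-1 gene of this population, was uneven, with 59.7%, 91.2% and 55% of members and 32.6%, 69.1% and 18.3% of thinned members. In Cd34 cells with high Mpo, thinned detection was 28.0%, 25.6% and 28.1% for Kit and 60.2%, 62.7% and 60.5% for Cd48. In Control, Kit was more frequent in the members (31.1 to 42.3) than in these cells (25.9 to 30.2). The intervals overlapped for Kit in IR and IR+CBD and for Cd48 in every library. Thinned detection was lower than in the members for Cd27 (19.7%, 16.6% and 19.1%) and Ly6a (1.80%, 5.76% and 1.52%). Kit and Cd48 were thus present as the label asks. Cd48 did not set the members apart from these cells and Kit did so only in Control, whereas Cd27 and Ly6a were more frequent in the members. The nearer classes had similar thinned shares. Flt3 Cd34 cells without Dntt gave 42.35%, 35.9% and 34.4% for Cd27 and 26.5%, 66.7% and 27.9% for Ly6a. Cells with Flt3, Dntt and Il7r gave 45.0%, 53.6% and 37.5% for Cd27 and 20.8%, 57.1% and 18.75% for Ly6a. Ly6a was found in most thinned members only in IR.

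Markers of committed lymphoid lineages were sparse. Of 15 B lineage genes, 3, 5 and 4 had no UMI in Control, IR and IR+CBD. Cd22 and Ms4a1 were at 0 in all 3, and the summed list reached 116, 154 and 165 CPM (UMIs scaled to a total of 1000000), with the B cell receptor regulator Cd72 (38.7, 66.4 and 54.3 CPM) most abundant and medians of -0.11, 0.20 and 0.33 over at most 6 measured genes. Of 16 T and NK genes, 3, 8 and 8 had no UMI, including Cd3e, Cd3g and Cd8a throughout, and of the 197, 288 and 260 CPM summed, Nkg7, a cytotoxic granule gene, gave 140, 255 and 223 (medians -0.50, 0.02 and -0.64). Rag1, a recombinase gene that follows Dntt in lymphoid specification, had 6, 4 and 14 UMIs, in 2.01%, 4.41% and 11.7% of members. After thinning Rag1 was found in 0.336%, 1.47% and 8.33% of members, beside 1.57%, 1.57% and 0.887% of neutrophils. In IR+CBD, 7 of its 14 UMIs lay in 1 cell. Rag2 had 5, 11 and 9 UMIs.

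The plasmacytoid dendritic list of 14 genes summed to 957, 1005 and 950 CPM in Control, IR and IR+CBD, led by Tcf4 (354, 393 and 369 CPM), a transcription factor also active in progenitors, with medians of 0.15, 0.08 and 0.06. Its defining Klk1 was at 0 in all 3 libraries and Siglech at 0 in IR. Endothelial and stromal genes summed to 177, 189 and 145 CPM, of which Pecam1 gave 141, 171 and 125, with Col1a1 and Col3a1 at 0 in all 3 and 4, 7 and 8 of the 12 genes undetected. Basophil, mast and eosinophil genes reached 17.7, 32.0 and 33.4 CPM, with 3, 5 and 4 of 11 at 0. Their most abundant gene was Cpa3 in Control and Mcpt8 in the irradiated libraries, and at most 3 genes of either list had enough UMIs for a ratio.

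In Control the members were 2.79% of cells (2.49 to 3.12), against 0.657% in IR (0.511 to 0.833) and 0.584% in IR+CBD (0.446 to 0.751). Their share in IR was 0.235 times that in Control (0.178 to 0.307), and in IR+CBD 0.209 times (0.156 to 0.277). Between the irradiated libraries, IR+CBD had 0.889 times the share of IR (0.617 to 1.28). The irradiated libraries thus held similar shares of members, both far below that of Control.

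The adjoining cell classes did not all follow. Flt3 Cd34 cells without a Dntt UMI but otherwise meeting the rule came to 1.61%, 0.377% and 0.604% of cells, with ratios of 0.234 (0.161 to 0.333; IR over Control) and 1.60 (1.06 to 2.46; IR+CBD over IR). Cells with Flt3, Dntt and Il7r, a later lymphoid step, made up 2.18%, 0.271% and 0.312%, with ratios of 0.124 (0.0806 to 0.184) and 1.15 (0.671 to 1.98). Depth differs between libraries in these classes too, and after thinning to 5000 UMIs the ratios were 0.197 (0.110 to 0.332) and 1.70 (0.901 to 3.29) without Dntt and 0.0784 (0.0307 to 0.168) and 1.99 (0.751 to 5.82) with Il7r, so that no interval of IR+CBD over IR leaves 1 out. Cd34 cells with 10 or more Mpo UMIs and no Dntt or Il7r formed 16.2%, 17.0% and 16.7%, and their IR share was 1.05 times that of Control (0.985 to 1.13), or 1.205 (1.085 to 1.339) thinned. Low shares after irradiation were therefore shared by the 3 Flt3 classes and not by the Mpo class. Why was not tested.

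Among Cd34 cells without Cd79a, members formed 9.31%, 3.02% and 2.66%, so the IR share was 0.325 times the Control share (0.246 to 0.424) on this base. Among Flt3 Cd34 cells counted with or without Dntt, members were 298 of 470 (63.4%; 58.9 to 67.8), 68 of 107 (63.6%; 53.7 to 72.6) and 60 of 122 (49.2%; 40.0 to 58.4). After thinning to 5000 UMIs this Dntt-positive fraction was 59.2%, 63.8% and 47.3%. IR+CBD had the lowest fraction on each count. Its unthinned interval overlaps that of IR and not that of Control, but thinned (33.7 to 61.2) it overlaps Control as well (52.5 to 65.7). The ratio to Control was 0.776 (0.578 to 1.03) unthinned and 0.798 (0.503 to 1.22) thinned, and both intervals include 1. As the fraction rests on Dntt, a rule gene, it is description only.

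**Figure D1:**
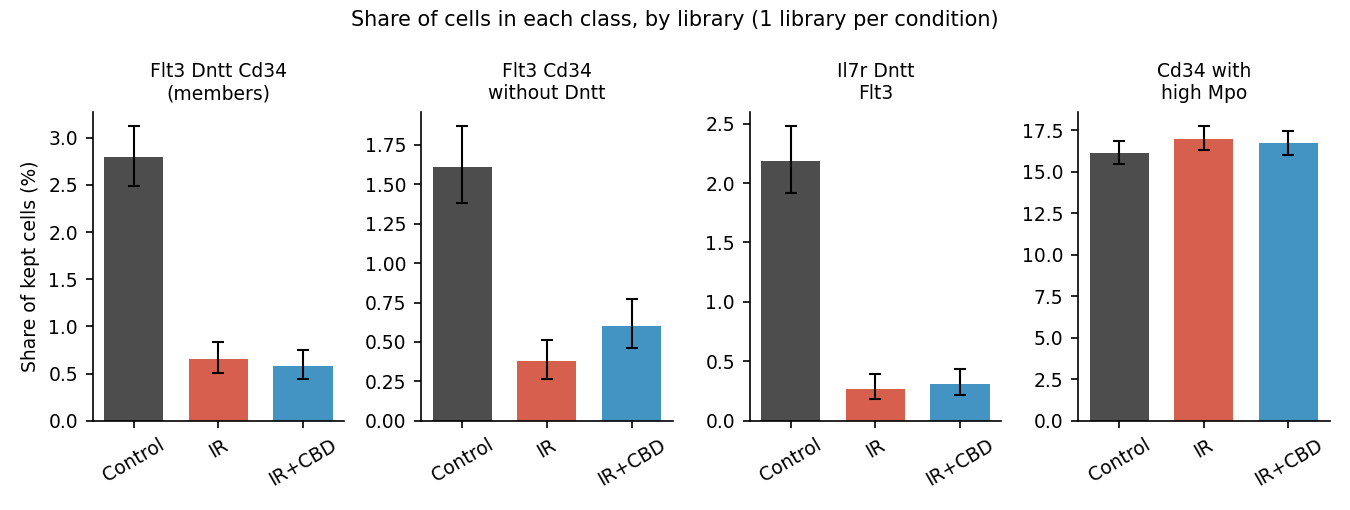
Bars show the percent of cells of each library (Control, IR, IR+CBD; vertical axis from 0) that belong to the members and to 3 adjoining classes, with exact binomial 95% intervals as error bars. Members stood at 2.79%, 0.657% and 0.584%, and Cd34 cells with high Mpo at 16.2%, 17.0% and 16.7%.

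Lymphoid priming was read from 34 early lymphoid genes other than the rule genes. Their summed level in the members was 5183, 5399 and 5130.5 CPM, and the median log2 ratio was -0.04 for IR over Control (13 genes higher, 16 lower; all genes -0.01) and 0.00 for IR+CBD over IR (all genes -0.04). By this sum the members of the irradiated libraries were close to those of Control, and the median for IR+CBD over Control was 0.02. Mef2c, a transcription factor that favors lymphoid over myeloid fate, was the most abundant at 1248, 1212 and 1131 CPM. Ratios for IR over Control were 0.972 (0.924 to 1.02) for Mef2c, 1.03 for the B lineage regulator Foxp1, 0.985 for the progenitor factor Sox4 and 1.25 (1.15 to 1.36) for Ikzf1, which encodes the lymphoid chromatin regulator Ikaros.

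The early lymphoid genes at the extremes were scarce. Ly6d, a surface marker of B-biased lymphoid progenitors, had 46, 41 and 45 UMIs in Control, IR and IR+CBD and ratios to Control of 2.92 in IR (1.87 to 4.55) and 4.12 in IR+CBD (2.67 to 6.36). In IR 82.9% of its UMIs came from 1 cell, and without each library's top member the ratio was 0.620 in IR and 2.96 in IR+CBD. Without the top 1 in 60 members, an equal fraction of each library, it was 1.09 and 5.22. Ccr9, a homing receptor of thymus-seeding cells, had 51 UMIs in Control, 0 in IR (upper limit of 3 counts) and 3 in IR+CBD. Ebf1, which commits cells to the B lineage, stood at 16.8, 35.0 and 52.8 CPM, or 1.51 times as high in IR+CBD as in IR (1.05 to 2.18), although 48.5% of the IR+CBD UMIs lay in 1 cell. Lck, a T cell kinase gene, gave the lowest ratio of IR+CBD over IR, 0.593 (0.320 to 1.06).

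The 27 stem cell genes summed to 3826 CPM (3774 to 3878) in Control, 2779 (2700 to 2861) in IR and 2702 (2613 to 2794) in IR+CBD. For IR over Control the median log2 ratio was -0.62 (-1.31 to -0.20 over genes) with 19 of 24 measured genes lower, and for IR+CBD over Control it was -0.28 with 18 of 24 lower, whereas IR+CBD over IR gave 0.12 with 10 higher and 8 lower. Ifitm1, an interferon-inducible membrane gene also high in stem cells, carried most of the difference in these sums at 1611, 720 and 606 CPM. Without it, a step chosen after the values were seen, the sums were 2215 (2175 to 2255), 2059 (1991 to 2130) and 2096 (2018 to 2177) CPM. Ly6a, also of this list and highest in IR (91.3, 269 and 64.4 CPM), was kept in these sums. For Ifitm1 itself, IR stood at 0.447 times Control (0.420 to 0.475), while its ratio of IR+CBD over IR, 0.842, became 1.00 when predicted doublets were removed.

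Among the other stem cell genes, levels diverged. Hlf, a factor of self-renewing cells, was at 124, 64.6 and 62.8 CPM in Control, IR and IR+CBD, and Meis1, a homeobox cofactor, at 318, 232 and 279. Angpt1, encoding a niche ligand, was higher in both irradiated libraries (419, 509 and 563 CPM), though its IR+CBD over IR ratio of 1.11 was below 1 after thinning. Mecom, a stem cell transcription factor, was at 252, 240.1 and 364 CPM, with 28.4% of the IR+CBD UMIs in 1 cell. Nkx2-3 was lowest for IR+CBD over Control (0.259, 0.146 to 0.429), and Samd12 was highest for IR+CBD over IR (2.21, 1.40 to 3.53).

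Procr, which encodes the endothelial protein C receptor of stem cells, had 42 UMIs in Control members, 0 in IR (upper limit of 3 counts) and 9 in IR+CBD. Thinned detection told the same for Hlf (34.6%, 22.1% and 28.3% of members) but not for Mecom (50.7%, 47.1% and 46.7%). In neutrophils, thinned Hlf reached 1.72%, 0.786% and 1.27%, and Mecom 0.470%, 0.393% and 0.887%.

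Myeloid priming genes, 24 in number and without Mpo, summed to 3698.5 CPM (3648 to 3750) in Control, 4794 (4689 to 4901) in IR and 4148 (4037 to 4260) in IR+CBD. The medians were 0.07, 0.10 and 0.11 for IR over Control, IR+CBD over IR and IR+CBD over Control, near the all-gene values of -0.01, -0.04 and -0.05, so the higher sum rested on few genes (the 0.10 was -0.11 in thinned members). Plac8, a small cysteine-rich protein gene of myeloid and lymphoid progenitors, had ratios of 1.55 (1.497 to 1.604), 0.771 (0.736 to 0.808) and 1.20. Ctsg, encoding cathepsin G, was at 111, 243 and 253 CPM, or 2.20 (1.93 to 2.49) and 2.28 (1.99 to 2.62) times Control in the irradiated libraries.

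Other myeloid genes gave ratios on both sides of 1. The chaperone gene Calr gave 1.26, 0.859 and 1.08, and the proteinase gene Prtn3 gave 0.814, 0.979 and 0.797. Csf1r, the macrophage colony-stimulating factor receptor, was lowest for IR over Control at 0.351, and the tetraspanin gene Cd63 for IR+CBD over Control at 0.529. Cebpd (1.44), a granulocyte transcription factor, was the highest for IR+CBD over IR, and the lowest was Elane (0.591, 0.396 to 0.869), encoding neutrophil elastase. The Elane ratio was 1.79 without predicted doublets, and Elane detection in thinned members (20.5%, 13.2% and 16.7%) lay below that in neutrophils (29.0%, 19.8% and 24.2%).

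Members also varied among themselves within each library. After thinning to 5000 UMIs, the median cell held 26 early lymphoid UMIs in Control (middle 50% of cells 19 to 33.75, range 9 to 69), 28 in IR (19 to 34.25, range 4 to 63) and 27.5 in IR+CBD (19 to 34, range 7 to 75). Stem cell list UMIs had medians of 19, 13.5 and 10.5, and myeloid priming UMIs of 16, 24 and 20. Across the 298, 68 and 60 cells, which share library and thinned depth within each group, the Pearson correlation of myeloid priming with stem cell UMIs was -0.362, -0.175 and -0.439, and that of early lymphoid with stem cell UMIs was -0.195, -0.153 and -0.236. Early lymphoid and myeloid priming UMIs gave 0.0674, -0.0174 and 0.208. These correlations are weak in sparse counts and are given as a description only.

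Grouping the members by Dntt UMIs showed the range of priming that the rule admits, with genes that vary with Dntt bound to differ by this grouping. In Control, members with 1, with 2 to 4 and with 5 or more Dntt UMIs (51, 70 and 177 cells) had early lymphoid sums of 4289.5, 4391 and 5712 CPM and stem cell sums of 4413, 4533 and 3409. In IR (10, 10 and 48 cells) the stem cell sums were 3831, 3818 and 2366, and in IR+CBD (12, 9 and 39 cells) 3185, 4466 and 1934. Depth differed between these groups as well, with medians of 14733, 16395.5 and 17629 UMIs in Control, 19072, 20058.5 and 23075.5 in IR and 17164.5, 21081 and 18264 in IR+CBD. Grouped by Mpo at 0, 1 to 3 and 4 to 9 UMIs, myeloid priming sums were 2689.9, 3504 and 4461 in Control, 3878, 4442 and 5899 in IR, and 3997, 3853 and 4796 in IR+CBD.

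The 23 cytokine receptor genes besides Flt3 summed to 1065, 869 and 874 CPM, and the medians were -0.20 for IR over Control (4 higher, 19 lower), 0.01 for IR+CBD over IR and -0.34 for IR+CBD over Control (4 higher, 18 lower). Relative to Control, 5 of 19 receptors in IR were past 1.5-fold lower and 0 higher (background 6.82% and 3.37%), and for IR+CBD 3 were lower and 1 higher (8.47% and 2.64%). Kit gave 93.9, 64.6 and 94.7 CPM, with IR at 0.688 times Control (0.553 to 0.849) and IR+CBD at 1.47 times IR (1.12 to 1.92). Of the other abundant receptors, the TGF-beta receptor gene Tgfbr2 had ratios of 0.580, 1.23 and 0.715, Notch2 of 1.09, 0.711 and 0.775, and the interferon receptor gene Ifnar2 of 0.975, 0.978 and 0.953. Cxcr4, the marrow-retention receptor, was highest for IR+CBD over IR (1.77) and over Control (1.68), and Csf2ra, a GM-CSF receptor gene, was lowest for IR+CBD over IR (0.659).

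The cell cycle was followed through 42 S phase and 52 G2/M phase genes. S phase genes summed to 3533 CPM (3483 to 3583) in Control, 3875 (3781 to 3971) in IR and 3342 (3243 to 3444) in IR+CBD, and G2/M genes to 5152 (5092 to 5213), 6250.5 (6131 to 6372) and 6373 (6236 to 6512). For IR over Control the medians were 0.16 (0.06 to 0.25; 30 of 42 higher) for S phase and 0.26 (0.16 to 0.37; 44 of 52 higher) for G2/M, which became 0.0513 and 0.0721 when each gene's top member was left out of each library and 0.18 and 0.33 when the same fraction, the top 1 in 60 members, was left out. S phase gave -0.24 (-0.35 to -0.20; 37 of 42 lower) for IR+CBD over IR, and G2/M gave -0.02 (24 higher, 27 lower). Members of IR+CBD thus had an S phase sum below that of Control and a G2/M sum near that of IR.

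Hmgb2, a chromatin protein gene that peaks late in the cycle, was the most abundant G2/M gene at 1261, 1560 and 1581 CPM, or 1.24 times Control in IR (1.18 to 1.295) and 1.01 times IR in IR+CBD. Cks2, a cyclin-dependent kinase subunit gene, gave 1.36 and 1.03, the topoisomerase gene Top2a 1.295 and 0.799, and the tubulin gene Tubb4b 1.45 and 1.07 in the same 2 comparisons. At the extremes stood the kinesin gene Kif2c (1.95, but 0.274 after thinning) and Psrc1 (0.713) for IR over Control, and the mitotic kinase genes Aurka (1.73) and Ttk (0.450) for IR+CBD over IR. Ube2c, which encodes a mitotic ubiquitin-conjugating enzyme, was highest for IR+CBD over Control at 2.08 and the lamina gene Tmpo lowest at 0.790.

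Among S phase genes, the replication clamp gene Pcna had ratios of 0.962 for IR over Control and 0.869 for IR+CBD over IR, the histone chaperone gene Nasp 1.31 and 0.783, the polymerase gene Pola1 0.789 and 0.951, and the helicase gene Mcm6 1.19 and 0.836. Cdc6, which licenses replication origins, was highest for IR over Control (1.77). Mcm2 was highest (1.16) for IR+CBD over IR and Rad51ap1, a recombination gene, lowest (0.632), and over Control these places went to the ribonucleotide reductase gene Rrm2 (1.34, but 0.845 after thinning) and the cyclin gene Ccne2 (0.678).

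Detection of proliferation genes in thinned members was 27.5%, 33.8% and 25% for Mki67 and 39.6%, 45.6% and 50% for Top2a in Control, IR and IR+CBD. Thinned neutrophils showed 10.7%, 6.68% and 10.1% for Mki67 and 10.5%, 7.60% and 10.3% for Top2a. Per thinned member, S phase UMIs had medians of 13, 17 and 14 and G2/M UMIs of 13, 18.5 and 16. The 18 cell cycle regulators summed to 2299, 2489 and 2128 CPM, led by the kinase gene Cdk6 (1004, 1084 and 887), with medians of 0.11, -0.20 and -0.15 for IR over Control, IR+CBD over IR and IR+CBD over Control. Cdkn2a, an inhibitor gene of senescent cells, had no UMI in any library (upper limit of 3 counts).

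Interferon response genes were high in IR members. The 56 genes summed to 4227 CPM (4172 to 4282) in Control, 4653 (4550 to 4758) in IR and 3013 (2919 to 3110) in IR+CBD. Ifitm1 weighs on this sum, and without it the sums were 2615.5, 3933.5 and 2407 CPM, while the medians give each gene the same weight: 0.84 (0.52 to 1.04; 46 of 51 higher) for IR over Control, -0.75 (-0.92 to -0.47; 42 of 47 lower) for IR+CBD over IR and 0.05 (28 higher, 21 lower) for IR+CBD over Control. Of 32 list genes with enough UMIs for the size rule, 17 exceeded 1.5-fold higher and 1 lower in IR over Control, where 3.37% and 6.82% of all 7686 measured genes did. For IR+CBD over IR, 0 exceeded it higher and 11 of 19 lower, beside 1.14% and 3.1% of 4747 genes, and for IR+CBD over Control 3 and 3 of 28 did, beside 2.64% and 8.47% of 7536.

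Ly6a, encoding the stem cell antigen Sca-1, was at 91.3, 269 and 64.4 CPM, or 2.95 times Control in IR (2.59 to 3.36) and 0.239 times IR in IR+CBD (0.187 to 0.303). In thinned members it was detected in 32.6% (27.3 to 38.2), 69.1% (56.7 to 79.8) and 18.3% (9.52 to 30.4), beside 1.25%, 1.44% and 0.254% of neutrophils, so that the pattern extended across most IR members. Oasl1, which restrains translation of Irf7 mRNA, stood at 5.89, 41.6 and 6.21 CPM (7.07, 4.59 to 11.1, and 0.149, 0.0619 to 0.311). Irf7, the regulator that amplifies interferon production, was at 12.5, 45.9 and 14.7 CPM, Rtp4, a receptor chaperone gene, at 21.9, 74.2 and 40.3, and Isg15, a ubiquitin-like modifier gene, at 24.9, 64.6 and 52.8.

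Further interferon genes had the same order in part. Bst2, which encodes the virion-retaining protein tetherin, was at 189, 288 and 208 CPM (1.52, 1.36 to 1.70, for IR over Control), the GTPase gene Irgm1 at 14.9, 40.4 and 17.8, and Ifi27l2a at 85.4, 224 and 54.3, with 0.243 (0.185 to 0.314) for IR+CBD over IR. Rnf213, a ubiquitin ligase gene, gave 66.1, 106 and 42.7 CPM and 0.402 (0.291 to 0.547) for IR+CBD over IR. The membrane genes Ifitm3 (1.07, 0.653 and 0.70) and Ly6e (1.26, 0.821 and 1.03) varied less between IR and Control. Ddx58, an RNA sensor gene, was the highest for IR+CBD over IR at 1.40, and Rsad2 was the highest for IR+CBD over Control at 2.38, but 0.931 after thinning.

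The interferon sum of the whole list was 3865, 4631 and 3106 CPM in Flt3 Cd34 cells without Dntt, 3083, 4325 and 2312 in the Il7r class, and 2481, 3448 and 2224 in Cd34 cells with high Mpo. IR was the highest library in each class, as in the members. Ifitm1 was not taken out of these sums. In Control and IR+CBD it stood at 1415 and 645 CPM without Dntt, 439 and 28.0 in the Il7r class and 735 and 461 with high Mpo. Its gap was slightly wider than that of the sums without Dntt and with high Mpo, so their order of Control and IR+CBD rests on it. In the Il7r class its gap was narrower than that of the sums.

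Genes of antigen presentation in the members were also highest in IR, with Control and not IR+CBD the lowest for MHC class I. The adjoining classes had a similar MHC class I ratio of sums for IR over Control. It was 1.49 in the members, 1.46 in cells without Dntt, 1.58 in the Il7r class and 1.49 in Cd34 cells with high Mpo. MHC class I genes (20) summed to 4368, 6517 and 5188 CPM in Control, IR and IR+CBD. All 19 measured genes were higher in IR than in Control (median 0.57, with 9 of 19 past 1.5-fold, background 3.37%) and all 19 were lower in IR+CBD than in IR (median -0.38, 3 of 18 past it, background 3.1%), and IR+CBD over Control gave 0.20 (15 higher, 4 lower). B2m, the invariant light chain gene, was the most abundant at 1220, 1752 and 1471 CPM, with H2-K1 at 679, 1049 and 818 and H2-D1 at 523, 888 and 681. H2-Q7, a nonclassical class I gene, stood at 88.5, 252 and 121 CPM, or 2.84 times Control in IR (2.49 to 3.25) and 0.481 times IR in IR+CBD (0.398 to 0.580).

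Psmb8, an immunoproteasome gene, had ratios of 1.48, 0.831 and 1.23, of which the IR+CBD over IR value was 1.07 after thinning. The smallest shifts were those of the peptide-trimming gene Erap1 for IR over Control (1.06) and of Psmb10 for IR+CBD over IR (0.959). H2-Q6 was the highest for IR+CBD over Control at 1.52, but 0.828 after thinning. MHC class II genes (10) were sparse at 307, 403 and 308 CPM, with medians of 0.30, -0.33 and -0.12. Their ratio of sums for IR over Control varied between classes. It was 1.31 in the members, 1.195 in cells without Dntt, 0.856 in the Il7r class and 1.03 in Cd34 cells with high Mpo. In cells without Dntt, IR+CBD was the highest library at 746 CPM.

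The promoters of these genes were searched for GAAA, any 2 bases and again GAAA, the core of an interferon-stimulated response element, on both strands of the 250 bases upstream of each RefSeq gene start (GRCm38.p6). Of all promoters, 978 of 32851 (2.98%) held it, as did 936 of 27025 genes counted over any promoter (3.46%), the base for the lists. Of the interferon list, 39 genes matched the table and 20 held it (51.3%), against 3 of 17 MHC class I genes and 2 of 28 immediate early genes. Among the 17 interferon genes past 1.5-fold higher in IR, 13 matched and 4 held it (Bst2, Gbp3, Irgm1 and Isg15), and of the 15 others with enough UMIs, 10 matched and 3 held it. The upstream sequences of these 4, Bst2 (chr8:71537473-71537722, minus strand), Gbp3 (chr3:142559794-142560043, plus strand), Irgm1 (chr11:48871421-48871670, minus strand) and Isg15 (chr4:156200819-156201068, minus strand), are shown because they carry overlapping copies of the motif among genes high in IR members, written 5′ to 3′ on the gene's strand with the motif, on either strand, in capitals.
Bst2: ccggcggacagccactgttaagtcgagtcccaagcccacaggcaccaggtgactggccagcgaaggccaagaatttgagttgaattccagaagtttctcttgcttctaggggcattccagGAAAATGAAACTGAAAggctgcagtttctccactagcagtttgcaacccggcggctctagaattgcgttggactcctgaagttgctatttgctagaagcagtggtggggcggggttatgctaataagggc
Gbp3: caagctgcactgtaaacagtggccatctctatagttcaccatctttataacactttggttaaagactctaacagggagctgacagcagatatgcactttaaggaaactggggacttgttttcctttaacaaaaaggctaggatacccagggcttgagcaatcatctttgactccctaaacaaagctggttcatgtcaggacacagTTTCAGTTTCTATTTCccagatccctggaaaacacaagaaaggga
Irgm1: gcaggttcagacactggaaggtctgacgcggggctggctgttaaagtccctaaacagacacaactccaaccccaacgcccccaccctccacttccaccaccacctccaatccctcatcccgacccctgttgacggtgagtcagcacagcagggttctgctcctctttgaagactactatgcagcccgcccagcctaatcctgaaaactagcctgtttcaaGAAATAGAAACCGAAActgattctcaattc
Isg15: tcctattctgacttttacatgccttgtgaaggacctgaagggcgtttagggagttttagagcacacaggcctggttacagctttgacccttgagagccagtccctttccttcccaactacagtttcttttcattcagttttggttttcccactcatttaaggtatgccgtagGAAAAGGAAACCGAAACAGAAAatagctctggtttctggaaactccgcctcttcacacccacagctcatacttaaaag

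Immediate early genes were lower in the members of both irradiated libraries. The 34 genes summed to 9574 CPM (9492 to 9657) in Control, 5459 (5347 to 5573) in IR and 5833 (5702 to 5967) in IR+CBD. Medians were -0.78 (-0.96 to -0.61; 32 of 33 lower) for IR over Control and -0.62 (31 of 33 lower) for IR+CBD over Control, comparisons that share the Control library, and 0.25 (18 higher, 14 lower) for IR+CBD over IR. Past 1.5-fold lower were 22 of 32 genes for IR over Control and 17 of 32 for IR+CBD over Control, beside the background of 6.82% and 8.47%. Thinned members held medians of 50, 28 and 30 immediate early UMIs.

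The AP-1 genes Jun (919, 473 and 560.1 CPM), Junb (766, 428 and 397) and Jund (738, 290 and 479) and the mRNA-decay gene Zfp36 (775, 475 and 429) had the most UMIs over the 3 libraries, with ratios for IR over Control of 0.515 (0.477 to 0.555), 0.558, 0.392 (0.356 to 0.432) and 0.613. Jund and Jun were higher in IR+CBD than in IR, by 1.65 (1.47 to 1.87) and 1.18 (1.07 to 1.31), whereas Junb and Zfp36 gave 0.929 and 0.904. Egr1, an early growth response factor, was lower at each step (344, 164 and 76.0 CPM), with 0.465 (0.365 to 0.588) for IR+CBD over IR and 0.221 (0.178 to 0.271) for IR+CBD over Control. The highest and lowest ratios of IR over Control were those of Myc (1.51) and Maff (0.249), and Atf3 was highest for IR+CBD over Control (1.17). The same sum in Cd34 cells with high Mpo was 3647.5, 2799.6 and 3133.8 CPM, and in Flt3 Cd34 cells without Dntt 8727, 4091 and 5157.5.

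By the 1.5-fold size rule (100 or more UMIs in the 2 libraries), 259 of 7686 genes were higher and 524 lower for IR over Control. With each gene's top member left out the split was 143 and 766, and with the top 1 in 60 left out 307 and 417. Among those with the highest ratios besides the interferon genes, Cenpv, a centromere protein gene, gave 17.7, 80.9 and 52.0 CPM in Control, IR and IR+CBD (4.58, 3.50 to 6.01), and 4933406J09Rik gave a ratio of 3.37. Slc25a21, a mitochondrial carrier gene, gave 13.8, 90.5 and 57.4 CPM (6.56, 4.94 to 8.77), with 80% of its Control, 60% of its IR and 73.0% of its IR+CBD UMIs in 1 cell. C1qtnf12, an adipokine gene, had 77.2% of its IR UMIs in 1 cell, and its ratio of 4.33 was 0.670 without predicted doublets.

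Of the genes lowest for IR over Control, Klk8, a serine protease gene, was at 67.7, 9.05 and 23.3 CPM (0.134, 0.0740 to 0.223), Prkg1, a cGMP-dependent kinase gene, at 105, 21.1 and 50.4 (0.201, 0.138 to 0.282), and Antxr2, a matrix receptor gene, at 108, 28.4 and 22.5 (0.262, 0.190 to 0.353). Peli2, an innate signaling ligase gene, gave 36.1, 6.64 and 3.88 CPM (0.184, 0.0904 to 0.337), the lactate dehydrogenase gene Ldhb 36.1, 6.64 and 11.6, and the linker histone gene H1f10 48.6, 10.3 and 28.7. The peptide transporter gene Slc15a2 (20.8, 1.81 and 13.2 CPM) and Serpinf1 (24.1, 4.22 and 6.21) were rarer. Apoe, a lipoprotein gene, had only 6 UMIs in IR and was at 34.4, 3.62 and 80.7 CPM, with 54.8% of the IR+CBD UMIs in 1 cell. The noncoding Gm2830 was also among the 10 (0.133).

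For IR+CBD over IR, 54 of 4747 genes were higher and 147 lower. Klf2, a quiescence and trafficking factor of lymphoid cells, was at 109, 46.5 and 103 CPM (2.22, 1.67 to 2.98), and S100a4, a calcium-binding protein gene, at 39.2, 26.6 and 79.9 (3.01, 2.10 to 4.39). The protease inhibitor gene Slpi (34.1, 22.3 and 57.4 CPM) gave 2.57. Lower in IR+CBD, besides genes already named above, were Wfdc17, an anti-inflammatory secreted protein gene (474, 172 and 71.4 CPM; 0.415, 0.325 to 0.527), the linker histone gene H1f5 (169, 265 and 133; 0.501, 0.417 to 0.599), the GTPase gene Gvin3 (69.2, 92.9 and 41.1; 0.443), the actin regulator Evl (28.0, 48.9 and 21.7; 0.445) and A630089N07Rik (0.367).

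For IR+CBD over Control, 199 of 7536 genes were higher and 638 lower. With each gene's top member left out these were 95 and 986, with the top 1 in 60 left out 187 and 580, and with DESeq2 size factors 244 and 543. Lowest were Wfdc17 at 0.151 (0.121 to 0.185), the chemokine gene Ccl3 (247, 125 and 72.2 CPM; 0.292, 0.234 to 0.361), the chromatin regulator Auts2 (185, 85.7 and 45.0; 0.244), the lipoprotein receptor gene Vldlr (49.7, 19.9 and 11.6; 0.234), and Antxr2 at 0.208 and Peli2 at 0.108. C77080 (27.2, 16.3 and 2.33 CPM; 0.0855) and the noncoding Gm32554 (39.8, 33.2 and 6.98; 0.176) and Airn (0.105) completed the 10 together with Egr1. Those with CPM given stood highest in Control and lowest in IR+CBD.

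Several of the highest ratios of IR+CBD over IR or Control came from genes of the neutrophil list. The 13 neutrophil genes summed to 5492, 7583 and 11413 CPM in Control, IR and IR+CBD, none at 0, with S100a9 (2354, 3047 and 4087 CPM), an alarmin gene, most abundant, and medians of 0.11, 0.42 and 1.19. The granule genes Camp (318, 982 and 1186 CPM) and Ngp (369, 399 and 1123) gave 3.09 for Camp in IR over Control and 2.82 for Ngp in IR+CBD over IR. In IR, 2225 of 2288 Camp and Ngp UMIs came from 1 member, in IR+CBD 2932 of 2977, and in Control 1578 of 3730. The 4, 1 and 2 members with 10 or more such UMIs were all among the 11, 5 and 7 predicted doublets.

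Without predicted doublets the Camp ratio was 0.810 for IR over Control, and for IR+CBD over IR Ngp was 0.296, the siderophore-binding Lcn2 0.220 (1.98 with them), the chitinase-like Chil3 0.356 (4.85 with them) and the lysozyme gene Lyz2 0.825 (2.01 with them). Ltf, encoding lactoferrin (5.98 for IR+CBD over IR), had 97.6% of its IR+CBD UMIs in 1 cell. Monocyte and macrophage genes (13) summed to 420, 422 and 769 CPM, of which Lyz2 gave 245, 294 and 591, with Fn1, Adgre1 and Vcan at 0 in IR and medians of -1.06, 1.08 and 0.27.

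Erythroid and megakaryocyte genes (22) summed to 498, 725 and 906 CPM, led by the carbonic anhydrase gene Car2 (252, 290 and 373) with Gp1bb at 0 in all 3, and had medians of 0.49, 0.29 and 1.38. Gata1, their defining factor, was detected in 2.01%, 7.35% and 8.33% of members, and after thinning in 0.671%, 4.41% and 1.67%, beside 0.940%, 1.18% and 0.254% of thinned neutrophils. High for IR+CBD over Control were the globin gene Hbb-bt (21.5, 30.2 and 88.4 CPM; 4.11, with 58.8% of its IR+CBD UMIs in 1 cell), the heme pathway gene Blvrb (34.1, 95.3 and 134; 3.94, with 57.0% of its IR UMIs in 1 cell) and Car1 (47.3, 126 and 165; 3.49, but 0.534 without predicted doublets). Also high was the metallothionein gene Mt1 (40.7, 82.1 and 125 CPM; 3.07), with 56.6% of its IR and 39.1% of its IR+CBD UMIs in 1 cell. The part of these transcripts in the other differences was not tested.

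Among metabolic lists, oxidative phosphorylation genes (65) summed to 17743, 20724 and 21479.5 CPM, and the medians were 0.23 for IR over Control (57 higher, 8 lower), 0.07 for IR+CBD over IR and 0.27 for IR+CBD over Control (62 higher, 3 lower). Cytosolic ribosomal protein genes (67) had medians of -0.02, 0.07 and 0.05 and glycolysis genes (19) of 0.07, 0.09 and 0.08. Glycolysis sums were 3189.9, 3479.7 and 3650.3 CPM, or 1.09 (1.06 to 1.12) and 1.14 (1.11 to 1.18) times Control in IR and IR+CBD.

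The 34 p53 response genes summed to 1821, 1739.6 and 1791 CPM with medians of 0.06, 0.00 and -0.17, and for IR over Control 1 of 20 was past 1.5-fold higher and 4 lower (background 3.37% and 6.82%). The BCL2 family (17) gave 941, 949 and 887 CPM and medians of 0.21, -0.18 and 0.32 (all genes -0.01, -0.04 and -0.05), with 2 of 8 past 1.5-fold higher for IR over Control and 2 of 8 for IR+CBD over Control (background 3.37% and 2.64%), and the non-homologous end joining genes (12) gave 361, 380.1 and 399.6 CPM and medians of 0.09, 0.21 and 0.05.

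Atf2 and Lrp6, a stress-responsive transcription factor gene and a Wnt co-receptor gene that the study names, were measured in the members of every library. Atf2 stood at 82.1, 80.9 and 69.1 CPM in Control, IR and IR+CBD, or 0.985 (0.806 to 1.20), 0.854 (0.646 to 1.13) and 0.841 (0.662 to 1.06) for the 3 comparisons. Lrp6 stood at 40.9, 35.0 and 38.8 CPM (222, 58 and 50 UMIs), or 0.857 (0.630 to 1.15), 1.11 (0.744 to 1.65) and 0.949 (0.684 to 1.3). No interval of either gene leaves 1 out. The 23 Wnt and Atf2-Lrp6 genes summed to 821, 884 and 805 CPM (IR 1.08 times Control, 1.01 to 1.14) and had medians of -0.02, 0.05 and -0.16, with 3 of the 11 that had 100 or more UMIs past 1.5-fold higher and 0 lower for IR over Control (background 3.37% and 6.82%). The 21 homing and adhesion genes had medians of 0.02, -0.05 and -0.09.

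**Figure D2:**
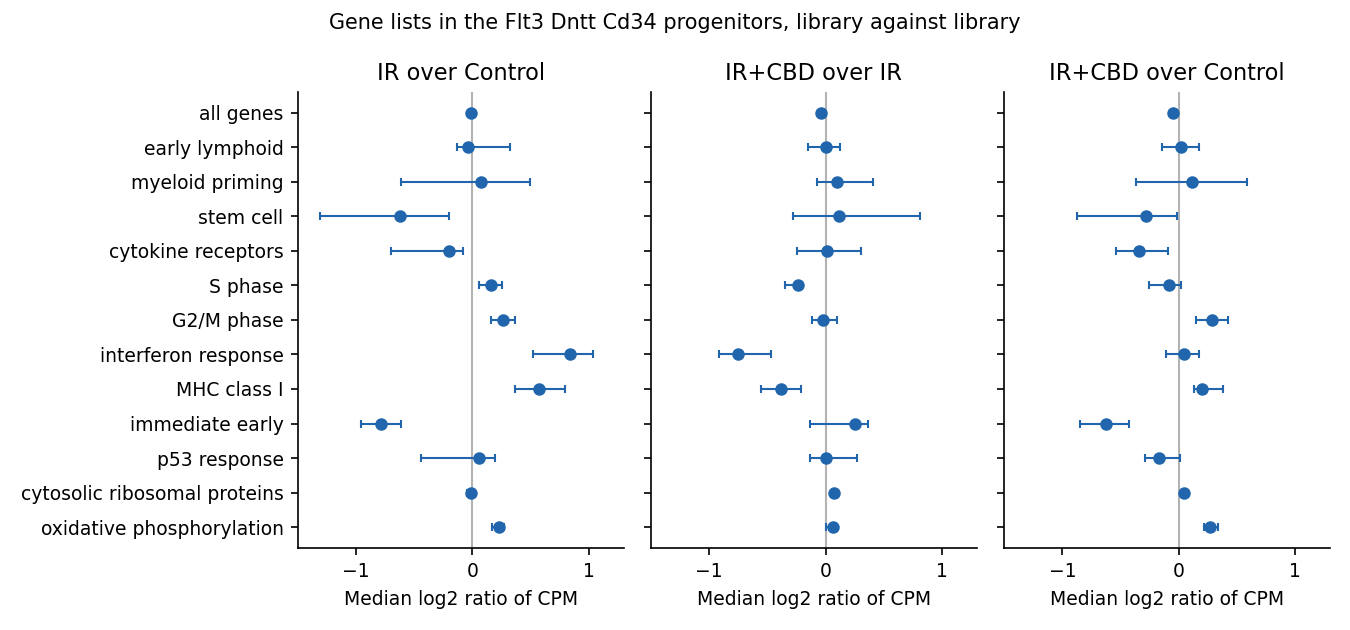
Points show the median log2 ratio of the members' CPM for 12 gene lists and all genes (horizontal axis) in 3 panels: IR over Control, IR+CBD over IR and IR+CBD over Control, with order-statistic 95% intervals over genes as error bars. The interferon list stood at 0.84, -0.75 and 0.05 and the immediate early list at -0.78, 0.25 and -0.62.

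The members were then compared with adjoining classes inside each library, with UMIs summed per class and library and library as a block in edgeR. The classes differ by the rule genes, so genes that vary with Dntt, Il7r, Mpo, Cd34 or Flt3 were bound to differ with the choice. The Il7r class did not require Cd34 (183 of 233 Control cells held it). Cd34 cells with high Mpo did not require Flt3 (574 of 1724 Control cells held it). The adjusted p measures how alike a difference is in the 3 libraries. Against Flt3 Cd34 cells without Dntt, 276 of 9774 genes were higher in the members (2.82%) and 240 lower (2.46%). The 516 calls became 178 by DESeq2, 96 without the library block and 269 in thinned cells. Of the early lymphoid list 15 of 27 tested genes were higher and 0 lower (median 0.45; all genes 0.01), and of the stem cell list 1 was higher and 10 lower of 21 (median -0.48).

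Arpp21, a neuronal and thymocyte RNA-binding protein gene, had the largest difference from these cells (log2 3.80, edgeR adjusted p 2.34e-05, in 3 of 3 libraries), at 56.0, 93.5 and 68.3 CPM in the members against 7.99, 1.85 and 0.808. Cmah, a sialic acid hydroxylase gene, was higher by 3.05 (edgeR adjusted p 2.62e-06) at 76.4, 75.4 and 106 CPM against 12.5, 10.2 and 6.46, and Ebf1 by 2.64 (0.00108 by the same test), each in 3 of 3 libraries. Higher in 3 of 3 libraries were also Cox6a2 (2.45), Cxcl2 (2.20), Tmem108 (2.14), Fgf13 (1.92), Plk2 (1.87), Gm32554 (1.80) and Emp1 (1.80), with edgeR adjusted p from 1.57e-05 to 0.00111. Plk2 lost the threshold without the library block (1.80), and Gm32554 lost it by DESeq2 (1.72) and without the block (1.79), each at a similar fold.

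Of the 10 lowest genes, Cd74, the invariant chain of MHC class II, fell by 2.28 (SE 0.12, edgeR adjusted p 1.46e-07, in 3 of 3 libraries), from 131, 160 and 201 CPM in cells without Dntt to 28.7, 30.2 and 34.9 in the members. F13a1, a coagulation factor gene of monocytes, was lower by 2.49 (edgeR adjusted p 0.000358, in 3 of 3 libraries; not called by DESeq2) at 14.2, 4.22 and 25.6 CPM against 86.3, 99.7 and 58.1. The others were Palld (-2.73), Gm15987 (-2.45) and Apba1 (-2.33), of which DESeq2 did not call the last 2, together with Plxdc2 (-2.43), Plbd1 (-2.40), Tifab (-2.19), Ifi30 (-2.16) and Ccr2 (-2.08), each in 3 of 3 libraries with edgeR adjusted p from 4.29e-05 to 0.00386.

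Other lists went both ways in this comparison. Lower in the members were 10 of 51 G2/M genes and none higher (median -0.32), 4 of 7 monocyte and macrophage genes and 4 of 8 MHC class II genes (with H2-Ob higher), while no S phase gene of 42, no MHC class I gene of 19 and no oxidative phosphorylation gene of 65 was called. Higher were 53 of 67 cytosolic ribosomal protein genes, by a small median of 0.18, and 12 of 32 immediate early genes (with Klf4 lower). Satb1, a chromatin organizer of lymphoid cells, was chosen for naming after its value was seen: it was higher by 1.26 (edgeR adjusted p 3.92e-06, in 3 of 3 libraries), at 235, 178 and 161 CPM against 103, 75.7 and 71.9.

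Against the Il7r class, 233 of 9660 genes were higher in the members (2.41%) and 366 lower (3.79%). The 599 calls became 224 by DESeq2, 208 without the library block, 344 in thinned cells and 261 without the Control library. The direction of the lists turned over: 0 early lymphoid genes were higher and 18 of 30 lower (median -0.59; all genes 0.00), and 12 of 17 stem cell genes were higher and 0 lower (median 1.04). Mecom was higher by 2.82 (edgeR adjusted p 2.01e-07, in 3 of 3 libraries) at 252, 240.1 and 364 CPM against 44.4, 39.2 and 21.7. Ifitm1 was higher by 2.56 (edgeR adjusted p 7.79e-06, in 3 of 3 libraries; not called without the library block) at 1611, 720 and 606 CPM against 439, 111 and 28.0. Samd12 (3.81), Csgalnact1 (3.32), Myct1 (2.84), Rab38 (2.77), Cxcl2 (2.67), Vldlr (2.36) and Prkg1 (2.31) were likewise higher in 3 of 3 libraries with edgeR adjusted p from 2.01e-07 to 0.000339. Cxcl2 (2.82 by DESeq2) and Vldlr (2.04 without the library block) each lost the threshold in 1 alternative fit at a similar fold. Prkg1 lost it by DESeq2 (2.28), without the block, and without the Control library, where its fold was 1.12.

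Siglech, a sialic acid-binding receptor of plasmacytoid dendritic cells, was lower in the members (log2 -5.72, edgeR adjusted p 6.34e-09, in 3 of 3 libraries), at 2.39, 0 and 1.55 CPM against 129, 27.0 and 54.4, where the 0 has an upper limit of 3 counts. Ly6d was lower by 4.90 (edgeR adjusted p 4.1e-07, in 3 of 3 libraries) at 8.47, 24.7 and 34.9 CPM against 735, 347 and 463. The B cell adaptor gene Blnk (-3.29), the neurotrophic receptor gene Gfra1 (-2.88), Kmo (-2.86), the lymphoid receptor gene Cd7 (-2.82), Ccr9 (-2.76), an unnamed gene (ENSMUSG00000119964), Jaml (-2.71) and Atp1b1 (-2.48) were lower in 3 of 3 libraries with edgeR adjusted p from 2.72e-07 to 6.55e-05. Of plasmacytoid dendritic genes 9 of 10 tested were lower (median -2.47). No S phase gene of 42, 1 G2/M gene of 51 (Top2a, lower) and no ribosomal gene of 67 was called.

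Against Cd34 cells with high Mpo, 3314 of 16472 genes were higher in the members (20.1%) and 3669 lower (22.3%), so a call here says little for any gene. Early lymphoid genes were higher in 27 and lower in 2 of 33 (median 1.67; all genes -0.02), stem cell genes in 21 and 1 of 26 (2.10), interferon response genes in 36 and 4 of 54 and immediate early genes in 30 and 0 of 34. Lower were 23 of 24 myeloid priming genes (median -1.95), 30 of 42 S phase genes, 33 of 52 G2/M genes and 61 of 65 oxidative phosphorylation genes (median -0.59).

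Hes1, a Notch target repressor, was higher by 6.11 (edgeR adjusted p 8.43e-22, in 3 of 3 libraries), at 48.8, 90.5 and 99.3 CPM against 0.743, 1.03 and 1.23, and Tox, a lymphoid chromatin factor, by 5.82 (edgeR adjusted p 2.29e-20, in 3 of 3 libraries), at 129, 163 and 105 CPM against 3.46, 1.5 and 1.29. Gm32554 (8.61), Sema3d (6.83), Arpp21 (6.55), Gm5111 (6.16), Slc16a11 (5.98), Nkx2-3 (5.80), Emp1 (5.75) and 1 unnamed gene made up the 10 highest, each in 3 of 3 libraries with edgeR adjusted p of 1.71e-14 or less. Elane was lower by 6.31 (edgeR adjusted p 1.59e-25, in 3 of 3 libraries), at 40.5, 52.5 and 31.0 CPM against 2732, 2921 and 3386, and the eosinophil granule gene Prg2 by 6.83 (edgeR adjusted p 4.43e-23, in 3 of 3 libraries), at 2.58, 3.02 and 1.55 CPM against 232, 346 and 227. Prss34 (-8.47), Prg3 (-8.07), Gm15581 (-7.44), Ms4a3 (-5.85), Dmkn (-5.62), Cldn15 (-5.10), Dynlt5 (-5.10) and F13a1 (-4.84) were the rest of the 10 lowest, each in 3 of 3 libraries with edgeR adjusted p of 1.44e-13 or less.

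The Flt3 classes were chosen on Dntt and Il7r, so their order in lymphoid and stem cell sums follows from that choice and is given as description. The members' early lymphoid sums of 5183, 5399 and 5130.5 CPM in Control, IR and IR+CBD stood above the 4233, 3757 and 3960 of cells without Dntt and below the 8285, 7777 and 8505 of the Il7r class. The stem cell sums of the members, 3826, 2779 and 2702 CPM, stood below 4702, 3316 and 3949 and above 1471, 1391 and 1109 in the same order.

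**Figure D3:**
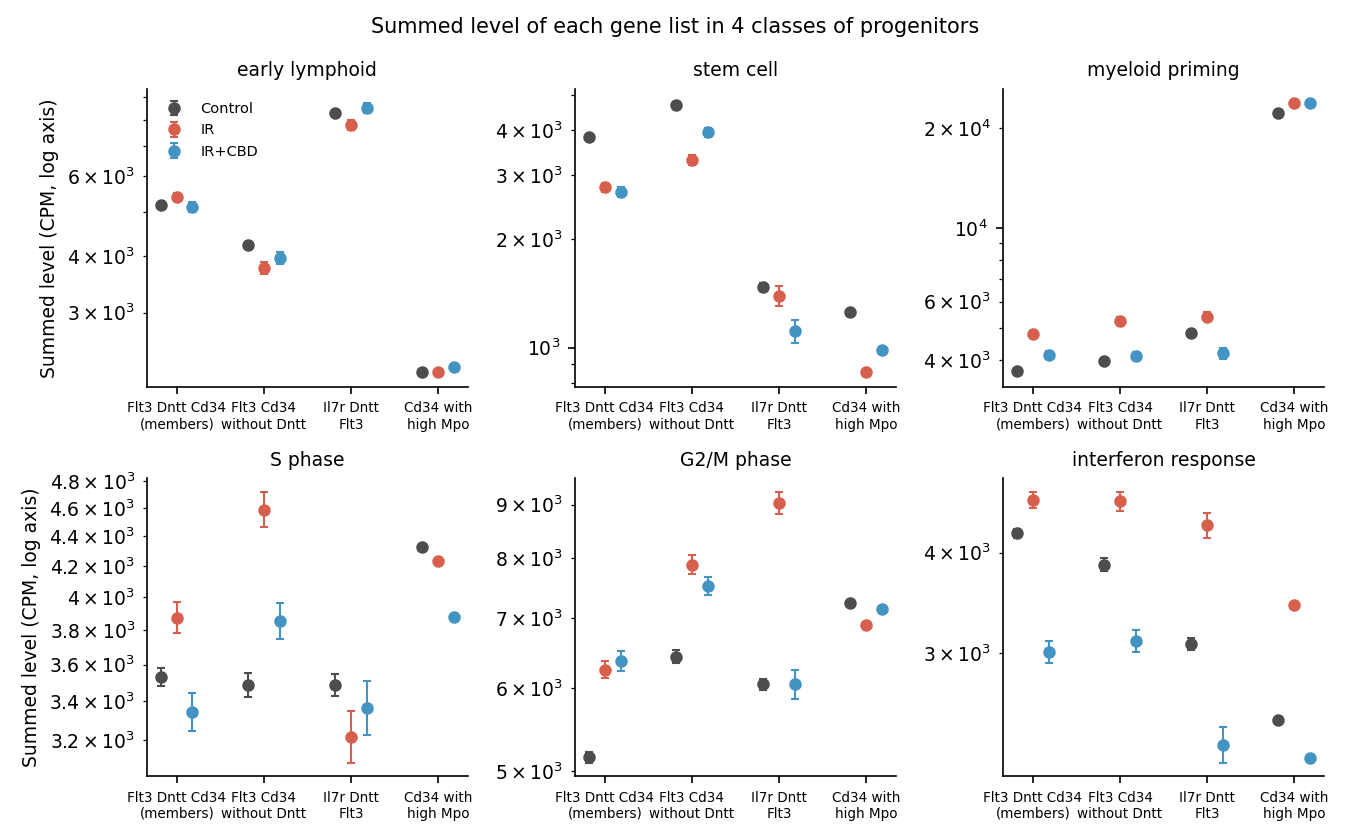
Points show CPM (logarithmic vertical axis) of 6 gene lists in 4 classes, with 1 point for each of the Control, IR and IR+CBD libraries. Error bars show intervals that cover counting error only. In the members the early lymphoid sum was 5183, 5399 and 5130.5 CPM and the stem cell sum 3826, 2779 and 2702.

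Other lists are given with calls higher and lower in the members by edgeR, beside the 2.82% and 2.46% of all genes against cells without Dntt and the 2.41% and 3.79% against the Il7r class. Against cells without Dntt the calls were 3 and 0 of 4 B lineage genes (Ebf1, Blnk and Cd72), 2 and 0 of 42 interferon genes (Rtp4 and Isg15), 3 and 2 of 21 cytokine receptors, 2 and 5 of 23 myeloid priming genes, 0 and 2 of 13 erythroid and megakaryocyte genes, 3 and 0 of 26 p53 response genes, 2 and 0 of 14 Wnt and Atf2-Lrp6 genes, 2 and 1 of 7 plasmacytoid dendritic genes, 1 and 1 of 16 cell cycle regulators and 0 and 2 of 18 glycolysis genes. The BCL2 family (of 10), end joining (of 10) and homing genes (of 18) had 1 call higher each, and neutrophil (of 11), T and NK (of 3), endothelial and stromal (of 3) and basophil, mast and eosinophil genes (of 1) had none.

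Against the Il7r class the members had 5 and 2 of 10 erythroid and megakaryocyte genes called, 0 and 3 of 5 B lineage genes, 6 and 6 of 23 myeloid priming genes, 1 and 7 of 17 homing genes, 0 and 4 of 8 MHC class II genes and 4 and 3 of 32 immediate early genes. The other counts were 3 and 2 of 20 cytokine receptors, 1 and 4 of 27 p53 response genes, 0 and 1 of 10 BCL2 family genes, 0 and 2 of 10 end joining genes, 0 and 0 of 14 Wnt and Atf2-Lrp6 genes and 0 and 0 of 19 MHC class I genes. Neutrophil genes had 1 and 0 of 12, monocyte and macrophage genes 1 and 1 of 7, T and NK genes 0 and 1 of 4, endothelial and stromal genes 0 and 1 of 2, cell cycle regulators 0 and 1 of 15, glycolysis genes 2 and 0 of 18 and oxidative phosphorylation genes 1 and 0 of 65. Of 46 interferon genes, 3 were higher (Ifitm1, Ifitm3 and Ifi27) and 3 lower (Ifi27l2a, Bst2 and Ly6e), which includes the 4 most abundant genes of that list.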

How the data were processed

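UMI counts were the deposited filtered matrices of 3 libraries (10x 3' V2), aligned by the authors to GRCm39 with Cell Ranger 4.0 in the submitters' processing notes and 7.0.1 per the file headers. Cells with 200 or more genes and at most 5% mitochondrial UMIs were kept. The members and lists were chosen with earlier results of these data known. Between libraries, CPM of summed UMIs were compared as ratios with exact conditional binomial 95% intervals. List medians used genes with 20 or more UMIs and a pseudocount of 0.5 UMI. Within libraries, summed UMIs of 4 classes were tested with edgeR 4.0.16 (quasi-likelihood, TMM, filterByExpr, library as a block), Benjamini-Hochberg adjusted p under 0.05. Named genes were the 10 highest and 10 lowest by the interval bound nearest 1 (100 or more UMIs), the 4 most abundant and the extreme genes (50 or more UMIs) of each list, the 10 largest and 10 lowest fold changes per class (20 or more CPM, same direction in 3 libraries), the rule genes, Kit, Ly6a, Cd48, Slamf1, Cd27, Atf2 and Lrp6. Other genes named were chosen after their values were seen, to show which genes stand behind a list. The top-member, top 1 in 60 and granule-member alternatives were also chosen after seeing the data. Doublets were predicted with Scrublet in scanpy 1.11.5 (0.8% per 1000 cells). Python 3.11.15, numpy 2.4.6, scipy 1.17.1, pandas 2.3.3, matplotlib 3.10.9, R 4.3.3 and DESeq2 1.42.0 were used. Promoters came from RefSeq (GRCm38.p6) and share no coordinates with the matrices.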

Additional observations from a re-analysis of the deposited data

Results flagged for a closer look

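The share of members in IR over Control was 0.235, beside 1.05 for Cd34 cells with high Mpo, and in IR+CBD over Control 0.209 beside 1.03. For IR+CBD over IR the members gave 0.889, beside 1.60 for Flt3 Cd34 cells without Dntt and 1.15 for the Il7r class. In cells thinned to 5000 UMIs these were 0.862 (0.490 to 1.51), 1.70 (0.901 to 3.29) and 1.99 (0.751 to 5.82), and each interval includes 1. The difference between the classes was not tested.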

How the results depend on the processing

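With 1 library per condition, each pooled from 3 mice, no value separates treatment from library. The members number 68 and 60 in the irradiated libraries, so 1 cell can carry a gene. The rule uses raw counts, and deeper cells pass its lower limits and fail its upper limits more readily. Promoter coordinates come from another genome build than the matrices. Where a value below moves without a stated reason, the cause was not tested.

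In 7 alternatives the 3 ratios of member shares stayed below 1, and relative to Cd34 cells without Cd79a they were 0.325 for IR and 0.286 for IR+CBD over Control. Among Flt3 Cd34 cells with or without Dntt, another base, IR over Control was 1.00, and 1.08 thinned.

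Genes past 1.5-fold numbered 783, 201 and 837 for IR over Control, IR+CBD over IR and IR+CBD over Control. Thinning members to 5000 UMIs gave 375, 41 and 409, a minimum of 200 UMIs gave 390, 60 and 431, and 1 UMI with a pseudocount of 0.5 gave 8077, 7625 and 7220. The 1 UMI setting changes both the minimum and the pseudocount. With each gene's top member left out, higher and lower genes were 143 and 766 for IR over Control and 95 and 986 for IR+CBD over Control, against 307 and 417, and 187 and 580, without the top 1 in 60.

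For IR over Control the S phase median was 0.0513 and the G2/M median 0.0721 with each gene's top member left out. That alternative takes 1 of 298 Control but 1 of 60 IR+CBD members and so lowers the smaller libraries by construction, and leaving out the top 1 in 60 was run afterwards for that reason and gave 0.18 and 0.33. For IR+CBD over IR, thinning gave -0.11 for myeloid priming and -0.37 for S phase, and removing predicted doublets gave -0.13 for G2/M. For IR+CBD over Control a pseudocount of 5 gave 0.26 for the interferon list. The all-gene median for IR over Control turned to 0.0375 (top 1 in 60), 0.00392 (mean of each cell's CPM), 0.0366 (thinned) and 0.12 (pseudocount of 5), and for IR+CBD over Control to 0.13 (pseudocount of 5).

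Thinning brought S phase levels to 3164, 3671 and 2993 CPM and G2/M levels to 4332, 5288 and 5330.0 in Control, IR and IR+CBD, and removing doublets brought G2/M to 5006 in Control and 5958 in IR+CBD. Thinned detection was 27.5%, 33.8% and 25% for Mki67 and 39.6%, 45.6% and 50% for Top2a, lower by construction.

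Of 1526 values of genes named between libraries, 39 reversed. Without predicted doublets, IR over Control became 0.670 for C1qtnf12 and 0.810 for Camp. IR+CBD over IR became 0.220 for Lcn2, 0.356 for Chil3, 1.00 for Ifitm1, 0.825 for Lyz2, 1.79 for Elane and 0.296 for Ngp. IR+CBD over Control became 0.534 for Car1, 0.198 for Chil3, 0.774 for C1qtnf12, 0.892 for Camp and 0.266 for Ngp. Without members of 10 or more Camp and Ngp UMIs, Camp was 0.865 (IR over Control) and 0.898 (IR+CBD over Control), Lcn2 0.260, Elane 1.66 and Ngp 0.346 (IR+CBD over IR), and Ngp 0.326 (IR+CBD over Control).

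Without the top 1 in 60 members, Camp was 0.894 for IR and for IR+CBD over Control, Elane 1.60 and Ngp 0.810 for IR+CBD over IR, and Ngp 0.779 for IR+CBD over Control. Without the top member, Camp was 0.124 in both comparisons with Control, Ly6d 0.620 (IR over Control), Elane 1.60 and Ngp 0.810 (IR+CBD over IR), Chil3 0.922 and Ngp 0.0598 (IR+CBD over Control). By the mean of each cell's CPM, IR+CBD over IR was 1.04 for Elane and 0.977 for Angpt1. Thinning gave 0.274 for Kif2c (IR over Control), 0.897 for Angpt1 and 1.07 for Psmb8 (IR+CBD over IR), and 0.845 for Rrm2, 0.931 for Rsad2 and 0.828 for H2-Q6 (IR+CBD over Control).

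Against cells without Dntt, 516 genes passed. DESeq2 gave 178, no filter beyond 1 UMI 785, thinning 269 and leaving out a library 366 to 540. Against the Il7r class, 599 passed, with 224 by DESeq2, 344 thinned and 261 to 577 leaving out a library, the lowest without Control. Against high Mpo, 6983 passed and 4855 to 6746 when a library was left out. The library block pairs classes of the same library, and without the block 96 and 208 genes passed for the first 2 comparisons.

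Of the 461 values of named class genes, 12 lost the threshold: by DESeq2 Gm32554, F13a1, Gm15987 and Apba1 (without Dntt), Cxcl2 and Prkg1 (Il7r), without the block Plk2 and Gm32554 (without Dntt), Ifitm1, Vldlr and Prkg1 (Il7r), and without the Control library Prkg1 (Il7r).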
